A study of Homo sapiens with 12 samples.

Results

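The collagen receptors measured here are the α2 integrin gene ITGA2, the genes of the other 3 collagen-binding α subunits (ITGA1, ITGA10 and ITGA11), ITGB1 for the β1 subunit that all of them need, and the discoidin domain receptor genes DDR1 and DDR2. They were taken by symbol from tables of 26485 genes, and all 7 were found and passed the filter on low counts, which 14732 genes passed. RNA was sequenced from spheroids of 3 lines made from DU145 (an established line of human prostate cancer), with 4 biological replicates of each, 12 samples in all. All lines carry the Crispr/Cas9 knockout of ITGA2. DU145KO was not transfected further, DU145KO+α2 was stably transfected with α2 integrin cDNA in the pAWneo2 vector, and DU145KO+vector was stably transfected with the empty pAWneo2 vector. The transfected lines were maintained in geneticin, which is not stated for DU145KO, so that the vector and its selection cannot be told apart as a difference from DU145KO. The edited cells were selected by GFP and cells that still had surface α2 were removed by sorting, and whether a line is 1 clone is not stated. Spheroids of 8000 cells were grown for 72 hours in serum-free medium. Parental DU145 cells were not analysed here.

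Integrins are heterodimers of an α and a β subunit that link the matrix to the actin cytoskeleton. The β1 subunit pairs with many α subunits, and the surface amount of each heterodimer depends on the supply of both chains. The α1, α2, α10 and α11 subunits share an inserted domain that binds triple-helical collagen, with α2 and α11 favouring fibrillar collagens and α1 and α10 basement membrane and beaded collagens. The discoidin domain receptors are receptor tyrosine kinases that bind collagen without an integrin. DDR1 is mostly an epithelial receptor, and DDR2, which binds fibrillar collagens, is mostly found in mesenchymal cells.

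The reference sequence of the target exon is shown because ITGA2 was still counted in the α2 negative lines. It is the unedited exon of hg38, and the edited alleles are not shown. The guide named in the methods targets exon 3 of 30 of ITGA2, a coding exon of 110 bases at chr5:53042112-53042221 on the plus strand of hg38 (GENCODE annotation). The capitals mark the target at positions 53042112 to 53042133, which are 19 bases followed by the PAM TGG. The site is thus the first 22 bases of the exon.
ITGA2 exon 3: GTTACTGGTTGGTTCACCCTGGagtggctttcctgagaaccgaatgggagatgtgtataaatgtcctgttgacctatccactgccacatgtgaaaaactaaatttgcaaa
The deposited counts are per gene and not per exon or allele. Transcripts of the edited gene, of alleles without a frameshift and of the transfected cDNA therefore add to 1 count and cannot be told apart.

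The total count on genes was 13948734 to 19988111 per sample, with a median of 16446500.5. A level of 3 counts corresponds to 0.1501 to 0.2151 CPM (counts relative to the library total, normalized by TMM), which covers counting error only. The quasi-likelihood test of edgeR was used for all genes, and a gene was called changed at an adjusted p below 0.05. Levels of different genes are compared only as RPKM, which also divides by gene length. Of the 4 epithelial markers, KRT8 and KRT18 were at 140 to 301 RPKM, EPCAM at 33.1 to 107 and CDH1 at 9.64 to 33.2. None was called higher in any comparison. In DU145KO+α2, 3 were lower than in DU145KO and 1 than in DU145KO+vector, where 8.17% and 11.9% of all genes tested changed. In DU145KO+vector 1 was lower than in DU145KO (2.34%). With a block for the replicate number these counts were 4, 3 and 1 (22.3%, 26.5% and 13.4%). Of the leukocyte markers PTPRC and CD3E did not pass the filter, CD14 had 21 to 43 counts, and CD68, a lysosomal protein of macrophages and many other cells, was at 25.5 to 43.99 RPKM. Of the endothelial markers VWF did not pass the filter, and KDR and PECAM1 had 8 to 50 counts per sample. The 4 fibroblast markers summed to 0.0999 to 0.826 CPM per sample, with LUM and THY1 at 0 in every sample.

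ITGA2 was present at 38.5, 41.6, 41.7 and 32.5 RPKM in DU145KO+α2 (replicates 1 to 4). It was at 2.39, 2.31, 2.54 and 1.63 RPKM in DU145KO+vector and at 2.68, 2.52, 3.20 and 1.97 RPKM in DU145KO. The α2 positive samples did not overlap with the others. Even the lowest library, replicate 4 of DU145KO+vector, held 189 counts of ITGA2, far above 3 counts. The fold change was 17.3 (95% interval 13.7 to 21.9) against DU145KO+vector and 14.7 (95% interval 11.7 to 18.6) against DU145KO, and ITGA2 was the only collagen receptor gene whose fold change exceeded 2 in any comparison. The 2 α2 negative lines overlapped, with a log2 fold change of −0.23 for DU145KO+vector against DU145KO (adjusted p = 0.534). With a block for the replicate number (replicate block), the same difference passed the test (adjusted p = 0.0402), and DU145KO+vector was lower in 4 of 4 pairs of the same number. It passed under no other alternative, voom with the same block included (adjusted p = 0.0599). The RPKM of ITGA2 uses a length of 7937 bases, which is that of the whole transcript, and the length of the transfected cDNA was not used here.

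**Figure D1:**
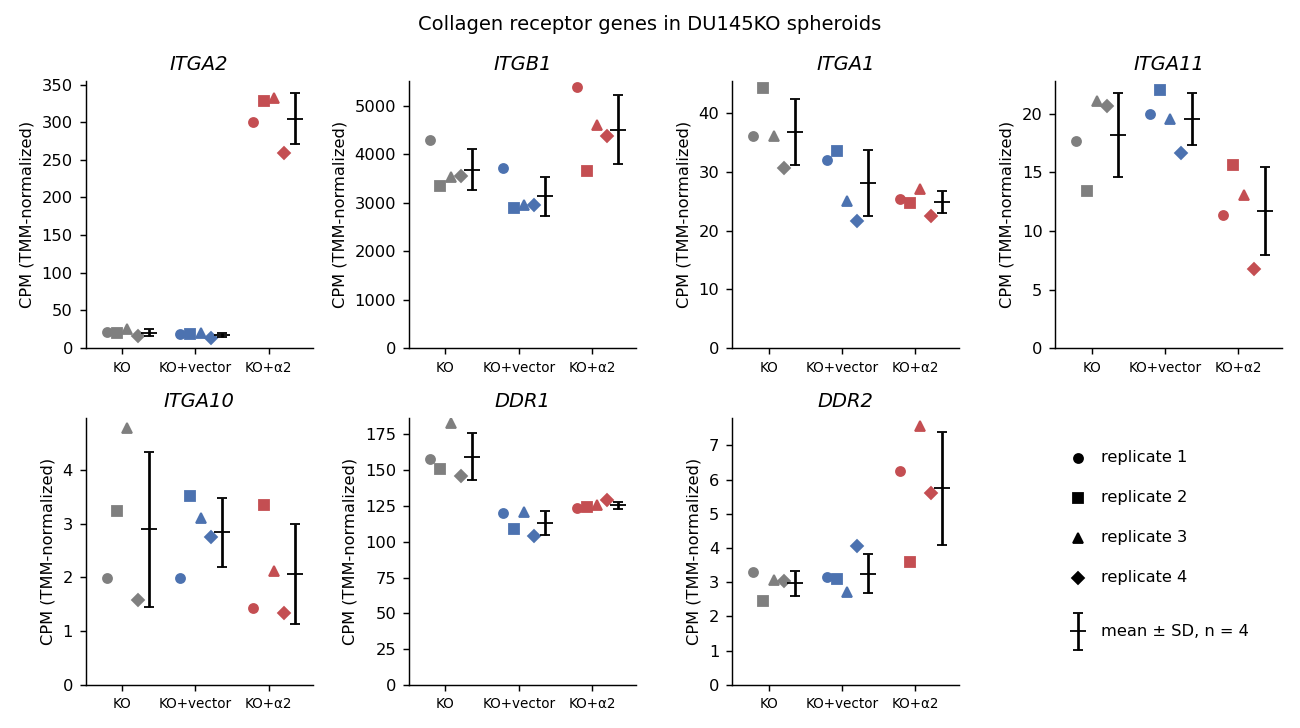
TMM-normalized CPM of the 7 collagen receptor genes (y axes, linear from 0) in each sample of DU145KO, DU145KO+vector and DU145KO+α2 (x axes), with symbols for the replicate number and the mean ± SD of the 4 replicates in black. ITGA2 separates DU145KO+α2 from the other lines, while DDR1 is highest in DU145KO and the lines overlap in ITGA10.

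ITGB1 was the most abundant collagen receptor gene in every sample. It was at 5381, 3652, 4611 and 4374 CPM in DU145KO+α2 (replicates 1 to 4), at 3726, 2897, 2945 and 2959 CPM in DU145KO+vector, and at 4296, 3337, 3539 and 3545 CPM in DU145KO. Replicate 1 was the highest in every line, and DU145KO+α2 overlapped with both other lines only through its replicate 2, which lay below replicate 1 and above replicates 2 to 4 of each of them. Between 0.289% and 0.525% of all counts of a sample came from this gene. By mean RPKM ITGB1 was at rank 31 of all genes in DU145KO+α2, at rank 41 in DU145KO and at rank 51 in DU145KO+vector.

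ITGB1 rose in DU145KO+α2 against DU145KO+vector, with a log2 fold change of 0.52 (standard error, SE, 0.13, adjusted p = 0.0123). This is a fold change of 1.44 (95% interval 1.19 to 1.73), and the call was kept when any sample was left out. Against DU145KO the log2 fold change was 0.29 (SE 0.13, adjusted p = 0.191), and between DU145KO+vector and DU145KO it was −0.23 (adjusted p = 0.422). Samples of the same number differed evenly. The log2 ratio of DU145KO+α2 to DU145KO was 0.32, 0.13, 0.38 and 0.30 in numbers 1 to 4, and that of DU145KO+vector to DU145KO was −0.21, −0.20, −0.27 and −0.26. With the replicate block both differences passed the test, with an adjusted p of 0.00214 for DU145KO+α2 against DU145KO and 0.0169 for DU145KO+vector against DU145KO. In that model DU145KO thus lay between the transfected lines. Of the 50-base windows of the ITGB1 transcript, 42.4% match a stretch of chromosome 19 exactly, so that uniquely aligned reads can come from the rest only. The part of this in the differences was not tested.

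The α2 to β1 ratio of RPKM was 2.89%, 4.64%, 3.72% and 3.06% in DU145KO+α2 (replicates 1 to 4). The ratio was 0.292% ± 0.0585 (SD, n = 4) in DU145KO+vector and 0.293% ± 0.0656 in DU145KO, and 3.58% ± 0.794 in DU145KO+α2. With the longest annotated transcripts as lengths it would be 0.404%, 0.406% and 4.95%. The ITGB1 windows that match elsewhere and the length of the cDNA were not corrected for. Replicate 2 of DU145KO+α2 had the highest ratio and the lowest ITGB1 of its line. Transcripts of β1 thus outnumbered those of α2 per length in every sample, also after re-expression. The summed RPKM of the 12 α subunit genes that can pair with β1 was smaller than that of ITGB1 itself: ITGB1 was at 2.85 to 5.47 times the sum in all samples (2.30 to 4.34 times with the longest annotated transcripts as lengths).

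The other collagen-binding α subunits were lower than ITGA2 in DU145KO+α2. In the α2 negative lines ITGA1 and ITGA11 were higher than ITGA2 by mean RPKM as deposited. The lengths behind those values are 44.8% of the longest annotated transcript for ITGA1 and 49.3% for ITGA11, compared with 101% for ITGA2. With the longest transcripts ITGA11 lay below ITGA2 in DU145KO+vector (1.92 and 2.24 RPKM) and in DU145KO (1.77 and 2.62 RPKM), and the ranges of ITGA1 and ITGA2 overlapped in both, so that the order of these genes depends on the length used. ITGA1 codes for a subunit that binds collagen IV and other basement membrane collagens. It was at 36.2, 44.3, 36.2 and 30.7 CPM in DU145KO (replicates 1 to 4), at 32.1, 33.6, 25.01 and 21.7 CPM in DU145KO+vector, and at 25.3, 24.8, 27.0 and 22.5 CPM in DU145KO+α2. DU145KO lay above DU145KO+α2 without overlap, and DU145KO+vector overlapped with both. ITGA1 was lower in DU145KO+α2 than in DU145KO, with a log2 fold change of −0.56 (SE 0.13, adjusted p = 0.0155). The call was lost without replicate 2 of DU145KO, where the adjusted p was 0.0598, and without replicate 4 of DU145KO+α2, where it was 0.0558. Against DU145KO+vector the log2 fold change was −0.17 (95% interval −0.46 to 0.12, adjusted p = 0.484). The difference of DU145KO+vector from DU145KO was −0.39 (adjusted p = 0.1602), and it passed the test with the replicate block (adjusted p = 0.00374). Its exons share 2.69% of their bases with PELO, a gene on the same strand.

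ITGA11, best known as the fibrillar collagen receptor of fibroblasts, was at 11.4, 15.6, 13.0 and 6.74 CPM in DU145KO+α2 (replicates 1 to 4). It was at 19.99, 22.03, 19.55 and 16.7 CPM in DU145KO+vector and at 17.6, 13.4, 21.1 and 20.7 CPM in DU145KO. Every DU145KO+α2 sample lay below every DU145KO+vector sample, with replicate 4 of DU145KO+α2 well below the rest. ITGA11 fell by 0.73 on the log2 scale in DU145KO+α2 against DU145KO+vector (SE 0.21, adjusted p = 0.0325). This call depended on the fit. The adjusted p was 0.0647 with the replicate block in edgeR but 0.00444 with the same block in voom, and 0.0596 without a filter on low counts. It was between 0.0621 and 0.0911 when replicate 1 or 3 of DU145KO+α2, or replicate 1, 2 or 3 of DU145KO+vector, was left out. Against DU145KO the log2 fold change was −0.63 (SE 0.21, adjusted p = 0.0818).

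ITGA10, known from cartilage, was rare, with 21 to 78 counts per sample. It had the lowest mean RPKM of the 7 genes as deposited, but with the longest transcripts DDR2 was lower than ITGA10 in both α2 negative lines. It was at 1.34 to 3.35 CPM in DU145KO+α2, at 1.99 to 3.52 CPM in DU145KO+vector and at 1.58 to 4.79 CPM in DU145KO. The lines overlapped, and no comparison passed the test. The 95% interval of the log2 fold change against DU145KO+vector was −1.19 to 0.32 and thus reached past a fold change of 2 downwards.

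**Figure D2:**
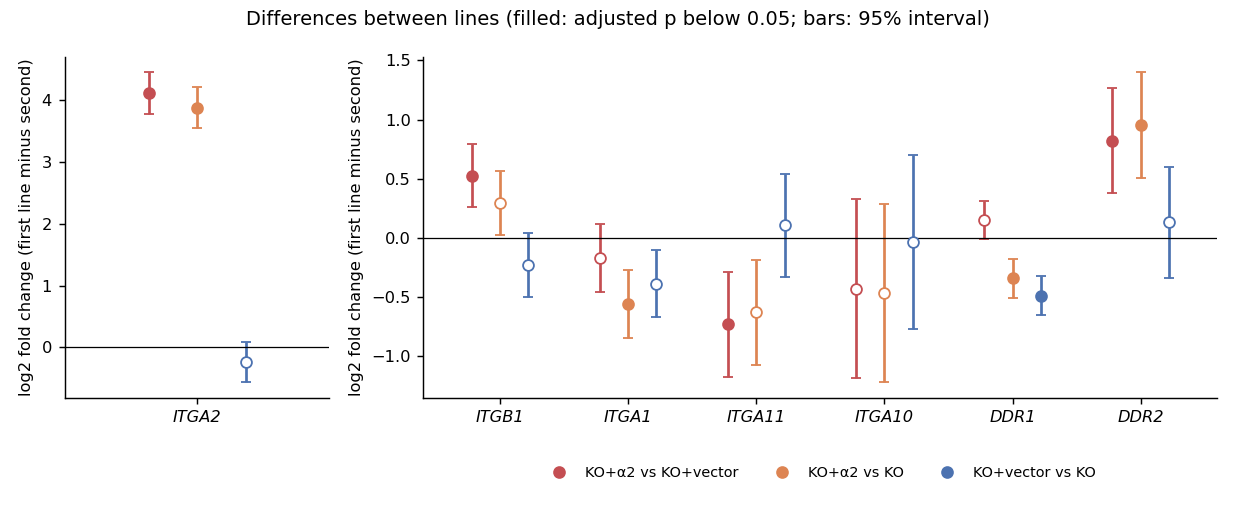
Log2 fold changes (y axes, first line minus second) of ITGA2 (left) and of the other 6 collagen receptor genes (right) in the 3 comparisons, with 95% intervals for each gene and filled symbols for an adjusted p below 0.05. ITGB1 and DDR2 are above 0 and ITGA11 is below 0 for DU145KO+α2 against DU145KO+vector, and DDR1 is below 0 in both comparisons with DU145KO.

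The share of α2 among the α subunits followed its re-expression. Of the summed RPKM of the 4 collagen-binding α subunits, ITGA2 made up 83.0% ± 0.656 (SD, n = 4) in DU145KO+α2, 17.7% ± 2.19 in DU145KO+vector and 18.0% ± 2.21 in DU145KO. With the longest transcripts in place of the deposited lengths the share would be 91.0% ± 0.546, 30.5% ± 3.10 and 31.1% ± 2.89. The collagen-binding α subunits together were 19.7% ± 1.502 of all α subunits that pair with β1 in DU145KO+α2, 5.17% ± 0.528 in DU145KO+vector and 5.96% ± 0.560 in DU145KO. With the longest transcripts these shares would be 19.8%, 3.36% and 3.85%. ITGA3, a laminin receptor subunit, was the most abundant α subunit gene and held 57.2% ± 2.33 of the sum in DU145KO+α2, 70.8% ± 1.76 in DU145KO+vector and 69.9% ± 3.66 in DU145KO.

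The α subunit genes other than ITGA2 summed to 206, 191, 211 and 180 RPKM in DU145KO+α2 (replicates 1 to 4). The sum was 252, 244, 248 and 211 RPKM in DU145KO+vector and 250, 218, 280 and 212 RPKM in DU145KO. The highest DU145KO+α2 sample reached 211.2 RPKM and the lowest DU145KO+vector sample 211.4 RPKM, so that the lines were separated by a narrow margin. With ITGA2 included, the sum was 235 ± 17.6 RPKM in DU145KO+α2, 241 ± 19.1 in DU145KO+vector and 242 ± 31.7 in DU145KO, and the lines overlapped. Most of the lower sum lay in ITGA3, at 135 ± 13.8 RPKM in DU145KO+α2 and 171 ± 17.2 in DU145KO+vector. Its log2 fold change was −0.35 in both comparisons with DU145KO+α2 (adjusted p = 0.0786 against DU145KO+vector and 0.0922 against DU145KO). With the replicate block ITGA3 passed the test in both.

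**Figure D3:**
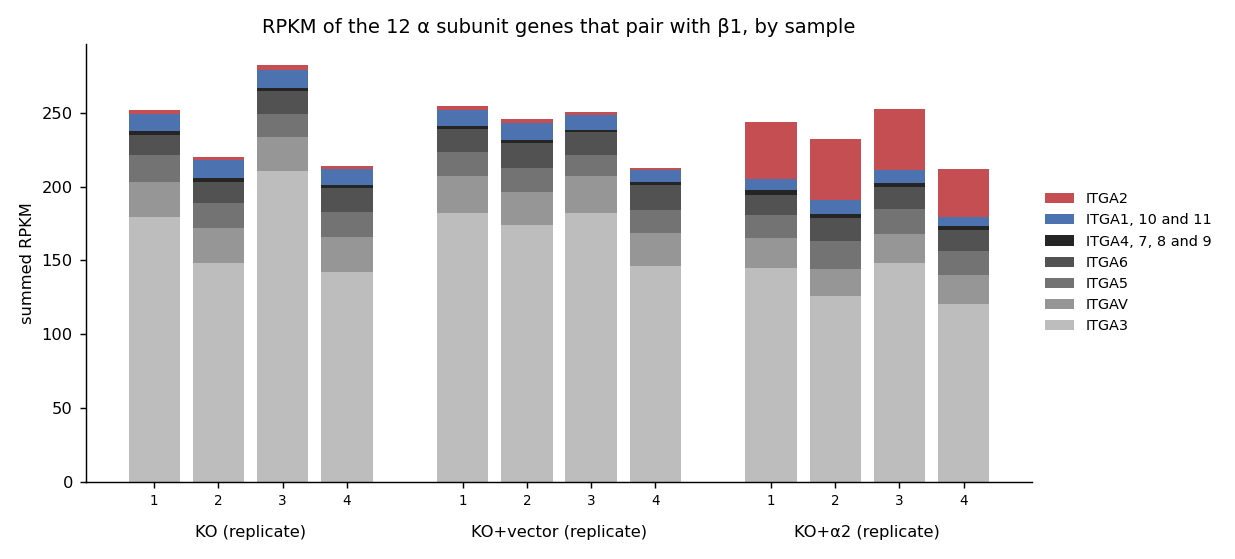
Stacked RPKM (y axis, linear from 0) of the 12 α subunit genes that pair with β1 in each of the 12 samples (x axis, replicate number within each line). ITGA2 (red) is visible as a broad band only in DU145KO+α2, the total lies between 212 and 283 RPKM, and ITGA3 (light grey) is the broadest band in every sample.

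DDR1, the kinase receptor of epithelial cells, was at 158, 151, 183 and 146 CPM in DU145KO (replicates 1 to 4). It was at 120, 109, 120 and 104 CPM in DU145KO+vector and at 123, 124, 126 and 129 CPM in DU145KO+α2. DU145KO was highest without overlap, and the DU145KO+α2 samples lay close together, all above DU145KO+vector. DDR1 was lower than in DU145KO in both transfected lines, with a log2 fold change of −0.49 in DU145KO+vector (SE 0.08, adjusted p = 0.00295) and −0.34 in DU145KO+α2 (SE 0.08, adjusted p = 0.0105). Both calls were kept when any sample was left out. Both comparisons use the DU145KO samples, so that they are not independent. Between the transfected lines the log2 fold change was 0.15 (95% interval −0.02 to 0.31, adjusted p = 0.254), and DU145KO+α2 was higher in 4 of 4 pairs. Of the epithelial adhesion genes, EPCAM was also lower than in DU145KO in both transfected lines, with a log2 fold change of −1.14 in DU145KO+α2 (adjusted p = 1.86e-05) and −0.83 in DU145KO+vector (adjusted p = 0.00093). CDH1 was lower than in DU145KO in DU145KO+α2 (−1.13, adjusted p = 0.00054), with −0.43 in DU145KO+vector (adjusted p = 0.189). Between the transfected lines CDH1 was lower in DU145KO+α2 (−0.70, adjusted p = 0.00981), where DDR1 had a difference of 0.15, and EPCAM differed by −0.31 (adjusted p = 0.0917). The part of these genes in the DDR1 difference was not tested. In such bulk RNA, fewer cells that express a gene and less RNA per cell cannot be told apart.

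The level of the receptors relative to each other is uncertain where the deposited length is far from the longest annotated transcript, as for DDR1, DDR2, ITGA1 and ITGA11. DDR1 departs most. All of the 3005 windows of 50 bases within its exons also occur on alternative contigs of chromosome 6 in hg38 (6 contigs over all windows), and only uniquely aligned reads were counted. How the alignment treated these contigs is not stated, and reads lost in this way were not corrected for. The length used for its RPKM is 24672 bases, 5.95 times its longest transcript of 4148 bases. DDR1 was at 6.42 ± 0.632 RPKM (SD, n = 4) in DU145KO as deposited and would be at 38.2 ± 3.76 RPKM with the longest transcript. A common factor of this kind leaves the fold changes between lines as they are.

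DDR2, which is activated by fibrillar collagens, was rare, with 40 to 128 counts per sample. It was at 6.27, 3.60, 7.56 and 5.599 CPM in DU145KO+α2 (replicates 1 to 4), at 3.16, 3.09, 2.70 and 4.06 CPM in DU145KO+vector, and at 3.31, 2.44, 3.07 and 3.04 CPM in DU145KO. All DU145KO+α2 samples lay above DU145KO, and replicate 2 of DU145KO+α2 lay below replicate 4 of DU145KO+vector. DDR2 rose in DU145KO+α2, with a log2 fold change of 0.82 against DU145KO+vector (SE 0.21, adjusted p = 0.0171) and 0.95 against DU145KO (SE 0.21, adjusted p = 0.00969). The first call was lost without replicate 3 of DU145KO+α2 (adjusted p = 0.0674) and without replicate 3 of DU145KO+vector (adjusted p = 0.0612). The difference of DU145KO+vector from DU145KO was 0.13 (95% interval −0.34 to 0.60, adjusted p = 0.854). Of the 50-base windows of its transcript, 19.6% also match chromosome 10. The ratio of DDR1 to DDR2 RPKM was 7.16 ± 0.989 (SD, n = 4) in DU145KO, 4.73 ± 1.04 in DU145KO+vector and 3.10 ± 1.03 in DU145KO+α2, all with the deposited lengths. The length used for DDR2, 3255 bases, is 32.0% of its longest transcript of 10160 bases, so that the uncertainties of both lengths multiply. With the longest transcripts the ratio would be 133 ± 18.4, 87.8 ± 19.3 and 57.5 ± 19.2, in the same order of lines.

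Counted together, 4 of 7 collagen receptor genes changed between DU145KO+α2 and DU145KO+vector, where 11.9% of all genes tested changed. ITGA2, ITGB1 and DDR2 were higher and ITGA11 was lower. ITGA2 was re-expressed by design, so that its call, fold change and lack of overlap in DU145KO+α2 were set in advance. The counts given here include it. Of the other 6 genes, only ITGB1, DDR2 and ITGA11 changed in this comparison. ITGA2 was the 1 gene that also passed a fold change of 2, as did 2.21% of all genes tested (against DU145KO 2.1% and, between the lines without α2, 0.835%). Against DU145KO, 4 of 7 changed (ITGA2 and DDR2 higher, ITGA1 and DDR1 lower), with 8.17% of all genes tested. Between DU145KO+vector and DU145KO, 1 of 7 changed (DDR1, lower), with 2.34% of all genes tested. The comparisons share samples and are not independent. With the replicate block 3, 5 and 4 of 7 changed, where 26.5%, 22.3% and 13.4% of all genes tested changed. Without ITGA2, which was edited and re-expressed by design, the median log2 fold change of the other 6 genes was −0.01, −0.41 and −0.13 in these 3 comparisons, while that of all genes tested was −0.0062, −0.0031 and −0.0011. The samples did not overlap for 3 of 7 genes (ITGA2, ITGA11 and DDR1) in the first comparison, as for 17.2% of all genes tested. In the second they did not overlap for 4 of 7 (ITGA2, ITGA1, DDR1 and DDR2), with 12.9% of all genes, and in the third for 1 of 7 (DDR1), with 8.76%.

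**Figure D4:**
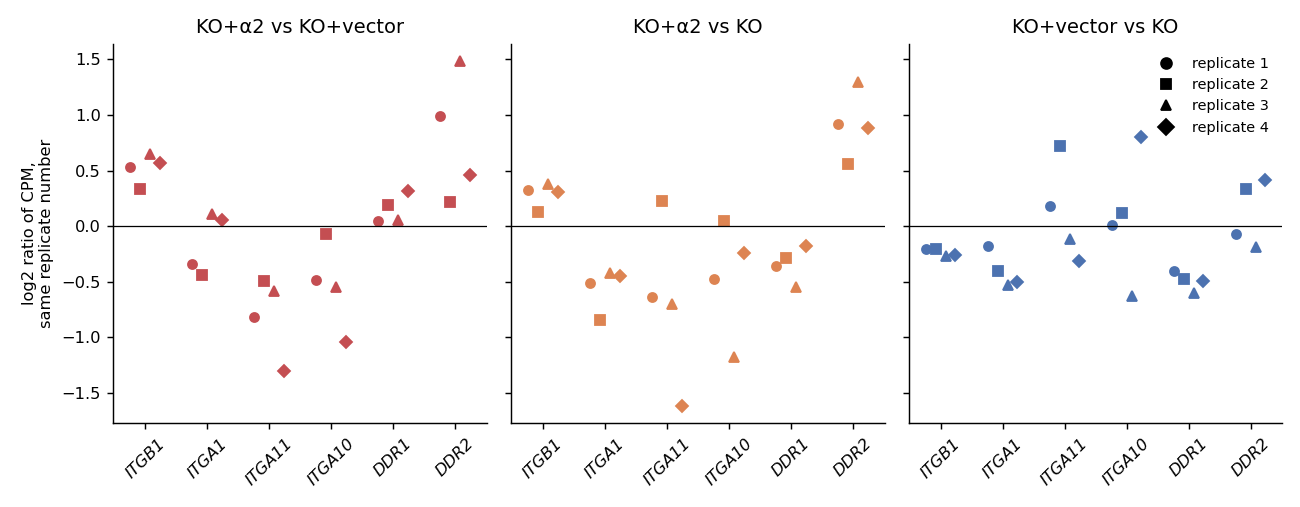
Log2 ratio of CPM between samples of the same replicate number (y axis) for the 6 collagen receptor genes other than ITGA2 (x axes) in the 3 comparisons. The ITGB1 ratios lie close together on one side of 0 in each comparison, while those of ITGA11, ITGA10 and DDR2 spread widely.

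The order of the 7 genes by RPKM was alike in the α2 negative lines. In DU145KO+vector ITGB1 was at 766 ± 102 RPKM (SD, n = 4), followed by ITGA1 at 5.85 ± 1.21, DDR1 at 4.60 ± 0.343, ITGA11 at 3.9 ± 0.455, ITGA2 at 2.22 ± 0.400, DDR2 at 1.001 ± 0.175 and ITGA10 at 0.538 ± 0.121. The ranges of ITGA1 and DDR1 and those of DDR1 and ITGA11 overlapped, and the other neighbours were separate. In DU145KO+α2 ITGA2 moved to the second place, at 38.6 ± 4.29 RPKM. It was followed there by ITGA1 and DDR1, whose ranges overlapped, then by ITGA11 and DDR2, whose ranges also overlapped, and by ITGA10. This order holds for the deposited lengths. With the longest transcripts the order in both α2 negative lines was ITGB1, DDR1, ITGA1, ITGA2, ITGA11, ITGA10 and DDR2, where the ranges of ITGA1 and ITGA2, of ITGA2 and ITGA11 and of ITGA10 and DDR2 overlapped. In DU145KO+α2 DDR1 would then come directly after ITGA2, and ITGA10 would stay last with a range that overlapped with that of DDR2.

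For the related gene groups, counts are read beside the share of all genes tested that changed, which was 11.9% for DU145KO+α2 against DU145KO+vector (26.5% with the replicate block), 8.17% against DU145KO (22.3%) and 2.34% for DU145KO+vector against DU145KO (13.4%). With so few genes in a group, no count was taken to set a group apart. Among other α subunits that pair with β1, 1 of the 6 tested was higher and 1 lower in DU145KO+α2 against DU145KO+vector (1 and 3 with the replicate block). ITGA9, a tenascin receptor subunit, was higher with a log2 fold change of 1.78 (SE 0.49, adjusted p = 0.0343), from 0.358 ± 0.278 to 1.26 ± 0.0891 RPKM. In DU145KO it was at 0.869 ± 0.609 RPKM, from 0.366 to 1.75 RPKM, which overlapped with DU145KO+α2. None of the 6 was called higher in DU145KO+α2 than in DU145KO. ITGAV, a subunit of vitronectin and fibronectin receptors, was lower with a log2 fold change of −0.30 (SE 0.06, adjusted p = 0.00408), and it was also lower than in DU145KO (−0.29, adjusted p = 0.00615). Of the 5 other β subunits tested, ITGB4 and ITGB2 were lower and none was higher in DU145KO+α2 than in DU145KO+vector. ITGB4, the partner of α6 in hemidesmosomes, fell from 6.39 ± 0.805 to 3.62 ± 0.447 RPKM. ITGB8 was higher in DU145KO+α2 than in DU145KO (log2 fold change 0.82, adjusted p = 0.0021) with the samples of DU145KO+vector in between.

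Among the collagen ligands of these receptors, fibrillar genes were low. Of 9 fibrillar collagen genes 3 passed the filter and none changed in any comparison (with the replicate block COL11A2 against DU145KO+vector and COL5A2 in DU145KO+vector against DU145KO did), with COL1A1 highest at 1.527 to 1.799 RPKM as line means. COL6A1 and COL6A2, chains of beaded collagen VI, were the most abundant collagen genes listed. By mean RPKM COL6A1 was the higher in DU145KO+vector and DU145KO, and COL6A2 in DU145KO+α2 (49.7 ± 2.99 RPKM), while COL6A3 had at most 1 count in any sample. COL6A1 was the 1 of 7 network and beaded collagens tested that changed, from 62.8 ± 3.75 RPKM in DU145KO+vector to 45.4 ± 2.22 in DU145KO+α2 (log2 fold change −0.47, adjusted p = 0.000447). It was also lower than in DU145KO (−0.34, adjusted p = 0.00573). With the replicate block, 2 of these 7 collagens were higher and 2 lower in DU145KO+α2 against DU145KO+vector (26.5% of all genes tested changed). There were 0 higher and 2 lower in DU145KO+α2 against DU145KO (22.3%), and 1 higher and 2 lower in DU145KO+vector against DU145KO (13.4%). The laminin chain LAMC1 was at a similar level, at 42.9 to 44.7 RPKM as line means. Of 5 other α2β1 ligands tested, 1 was higher in both comparisons with DU145KO+α2. This was the laminin chain LAMA1, with a log2 fold change of 0.65 against DU145KO+vector (adjusted p = 0.00136) and 0.39 against DU145KO (adjusted p = 0.0444). Of the collagen receptors outside the integrins and DDRs, 3 of 5 were tested and none changed (MRC2 did against DU145KO with the replicate block), with MRC2, an endocytic collagen receptor, at 15.4 to 17.6 RPKM as line means.

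Of 17 genes tested that act on the β1 tail, 1 was higher, 3 were lower and 13 did not pass the test in DU145KO+α2 against DU145KO+vector, where 11.9% of all genes tested changed (3 higher and 4 lower with the replicate block, where 26.5% did). TLN1 codes for talin, which binds the β tail and activates integrins, and it fell from 92.3 ± 7.05 to 58.2 ± 8.40 RPKM (log2 fold change −0.67, adjusted p = 0.000633). PARVA, a partner of integrin-linked kinase, was lower (−0.57, adjusted p = 0.00175), as was ITGB1BP1, an inhibitor that binds the β1 tail (−0.25, adjusted p = 0.0222). DAB2, an endocytic adaptor of β1, was higher (0.78, adjusted p = 0.00045). Against DU145KO, 2 of 17 were higher (TLN2 and DAB2) and 2 lower (PARVA and TLN1), with 8.17% of all genes tested, and between the α2 negative lines none changed (4 were higher in DU145KO+vector with the replicate block).

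Of 15 adhesion kinases and adaptors, 2 were higher and none lower in DU145KO+α2 against DU145KO+vector, a share near the 11.9% of all genes tested (5 and 1 with the replicate block, with 26.5% of all genes). PTK2B, a kinase related to focal adhesion kinase, rose from 7.37 ± 1.32 to 14.3 ± 0.407 RPKM (log2 fold change 0.96, adjusted p = 0.00031). SHC1, an adaptor of both β1 integrins and DDRs, was higher with a log2 fold change of 0.55 (adjusted p = 0.00522). The tensins TNS4 and TNS2, which bind β tails, were lower in both transfected lines than in DU145KO. TNS4 differed by −1.90 (adjusted p = 0.00422) in DU145KO+α2 and by −3.11 (adjusted p = 0.00107) in DU145KO+vector. It was rare, with 11 to 28 counts per sample in DU145KO+α2, 4 to 14 in DU145KO+vector and 40 to 99 in DU145KO. Among 8 DDR adaptors and partners, WWC1, a scaffold that binds DDR1, was likewise lower in both, by −0.80 (adjusted p = 0.000151) and −0.82 (adjusted p = 0.000445). WWC1, TNS2, TNS4 and DDR1 thus differed from DU145KO in DU145KO+vector too. Of 6 genes of β1 trafficking tested, RASA1 was lower in DU145KO+vector than in each of the other lines.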

How the data were processed

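Libraries were made with a stranded mRNA kit and sequenced as single-end reads. Per the labels and the methods, the authors aligned the reads to hg38 with TopHat2 2.1.0 and counted uniquely aligned reads per gene with Subread 1.5.0, and the strand setting of the counting is not given in the sources used here. The authors deposited these counts without normalization, and the tests used them. The authors also deposited RPKM values, which equal the counts over a factor of the sample and a length of the gene.

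All 12 samples were fitted in 1 model with a term for the line in edgeR 4.0.16 (R 4.3.3), with TMM factors, filterByExpr with a minimum count of 10 and the robust quasi-likelihood F-test. Tests were two-sided, with Benjamini-Hochberg adjustment over 14732 genes. Alternatives were other size factors, DESeq2 1.42.0, voom of limma 3.58.1, other filters, the 2 compared lines alone, the replicate block, a fold change above 2, and each sample left out. Added after seeing the data were the size factors of the authors, voom with the block, library sizes without ITGB1 and ITGA2, and the longest GENCODE transcript of each gene as its length. The fits were tested on simulated counts with the same spread for every gene and no effect of the replicate number. That simulation thus does not cover the deviations shared by samples of the same number.

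The numbers 1 to 4 come from the sample labels. Samples of the same number deviated from their line means together in each of 12 pairs (correlation across genes 0.135 to 0.554, different numbers −0.290 to 0.149). The numbers were therefore taken to pair the samples in the replicate block and in the ratios between samples of the same number. The main fit had a term for the line only and did not use this pairing. Calls, SEs and intervals given without mention of the block are thus unpaired. What a number stands for is not stated. The 7 genes and all gene lists were chosen with earlier results of these data known. Genes named from the other lists are those past the test and the most abundant of each list. Windows of 50 bases of each transcript were searched in hg38 for exact matches. Intervals are for single genes and cover the spread between samples only.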

Additional observations from a re-analysis of the deposited data

Results flagged for a closer look

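Within the 4 DU145KO+vector samples, ITGB1 in replicate 1 (3726 CPM) stood apart from the other 3 (2897 to 2959 CPM), with a gap of 0.926 of the whole range of the line, above the critical value for 4 samples. It was the 1 such sample in 30 groups examined, where chance gives about 1 in 20, or 1.5. Without this library the log2 fold change of ITGB1 in DU145KO+α2 against DU145KO+vector was 0.63 (adjusted p = 0.00604, edgeR's quasi-likelihood test), compared with 0.52 with it. Replicate 1 was also the highest in DU145KO+α2 and in DU145KO, and those libraries stayed in that fit. With the replicate block and all samples the log2 fold change was 0.52.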

How the results depend on the processing

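Of 483 log2 fold changes recomputed for the 7 genes, 461 kept their side of the threshold, 11 lost the test and 11 gained it, and no difference past the test changed direction. ITGA10 (−0.24 to 0.32) and ITGA11 (−0.02 to 0.18), not past the test in DU145KO+vector against DU145KO, changed sign there. With the replicate block the number of genes changed was 3911 for DU145KO+α2 against DU145KO+vector, 3286 against DU145KO and 1980 for DU145KO+vector against DU145KO, compared with 1754, 1203 and 344 without it, and voom with the block gave 3942, 3206 and 1965. The block gave 4 collagen receptor genes in the last comparison and voom with the block 3 (ITGA2 did not pass), and beyond those given above the block changed no other call of the 7 genes. With a fold change above 2 added to the test 325, 309 and 123 genes changed, of which 1, 1 and 0 were collagen receptors. With the fold alone the first 2 numbers were 414 and 384, again with 1, 1 and 0. DESeq2 called 587 genes in the last comparison. With a sample left out, 1212 to 1832, 832 to 1199 and 159 to 526 genes changed, and 2 to 4, 3 to 5 and 1 collagen receptor genes. ITGA11 gained the test against DU145KO with DESeq2 (adjusted p = 0.0293) and with voom and the block (0.0195). The difference of the summed α subunits without ITGA2 between DU145KO+vector and DU145KO turned from 0.0001 to −0.0072 (log2) when CPM were summed in place of RPKM. Where no value is given beside them, the cause was not tested. DDR2 and ITGA10, at 21 to 128 counts, are the least precise values.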

Other observations

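The genes around the receptors were examined within 5 megabases on each side, a range chosen after values were seen. The median log2 fold change of the tested neighbours was between −0.18 and 0.08 for all 7 genes and 3 comparisons. Around ITGA2, over 20 genes, it was 0.07 in DU145KO+α2 against DU145KO+vector, with 0 higher and 2 lower. Against DU145KO it was −0.13 in DU145KO+α2 (0 higher and 4 lower) and −0.18 in DU145KO+vector (0 higher and 2 lower). Of all genes tested 11.9%, 8.17% and 2.34% changed in these 3 comparisons. Around ITGB1 it was 0.05 in DU145KO+α2 against DU145KO+vector over 23 genes, of which 3 were higher and none lower. Around DDR1, in the MHC region of chromosome 6, 1 of 184 genes was higher and 32 were lower in DU145KO+α2 than in DU145KO, where 8.17% of all genes tested changed. None was higher and 5 were lower in DU145KO+vector than in DU145KO (2.34% of all genes), the comparison with the larger DDR1 difference, and between the transfected lines 6 were higher and 13 lower with α2 (11.9%).

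Across the 12 samples and 12783 genes with a mean log2 CPM of at least 1, the genes most like ITGA2 were IGDCC4 (Pearson's r = 0.98), PPP2CB (0.97) and ASH2L (0.97), of which the last 2 lie on chromosome 8. ITGB1 was most like PLA2G4D (0.98), FAM60A (0.97) and TNFRSF10D (0.96), DDR1 most like CYP4F11 (0.94) and RASA4 (0.93), and ITGA10 most like MYH9 (0.94), SPTBN1 (0.92) and FLNC (0.91). Among the 7 genes, ITGA2 had a correlation of 0.79 with DDR2, 0.72 with ITGB1 and −0.71 with ITGA11. These values describe 12 samples that share 3 lines and 4 replicate numbers, and were not tested.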
